A study of Mus musculus with 8 samples.

Results

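Growth cone and neurofilament genes are described here by 10 members, which were matched by symbol in the deposited table of 16980 genes. In the capitals of that table they are GAP43, BASP1, MARCKS, MARCKSL1, NEFL, NEFM, INA, CRMP1, DPYSL2 and DPYSL3, written below as Gap43, Basp1 and so on. All 10 were found, and 8 of them were listed at all 4 hours with a mean of at least 1 FPKM (fragments per kilobase of transcript, normalized for library size) and were tested among 11306 genes. Nefl and Nefm were listed at 4 h only and are given by their values alone. The cells were Neuro2A (N2A), a mouse neuroblastoma line that extends neurites in culture. After 16 h in serum-free medium they received 2 µM HU210, an agonist of the cannabinoid 1 receptor (CB1R), dissolved in DMSO, or DMSO alone, and were harvested after 2 h, 4 h, 6 h or 8 h. The groups are therefore HU210 and DMSO at 4 hours each, all in starved cells of a single tumor line with no genetic change stated, which limits them as a model of a neuron. Each of the 8 conditions had 1 library, made from mRNA pooled over 2 to 3 experiments, so that no change at a single hour has a replicate check.

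These genes encode proteins of the growing neurite tip and of the axonal cytoskeleton. GAP-43, CAP-23 (the product of Basp1), MARCKS and MARCKS-like 1 sit on the inner face of the plasma membrane, bind phosphoinositides, and are released or altered by calmodulin or protein kinase C, which ties the membrane to the actin cortex. Neurofilament light (Nefl), neurofilament medium (Nefm) and alpha-internexin (Ina) are type IV intermediate filament proteins, which fill and widen the axon. The collapsin response mediator proteins (CRMPs), here Crmp1, Dpysl2 (CRMP2) and Dpysl3 (CRMP4), bind tubulin or actin and relay semaphorin signals at the growth cone.

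Promoter sequence was available for 4 of the 10 members in the RefSeq table used here, and for 3 of them the 250 bases before the annotated start are shown, because Basp1 and Ina had similar time courses (r = 0.79 over the 8 libraries) whereas Crmp1 was the member with the least variation. Each window runs 5′ to 3′ on the strand of its gene, on GRCm38.p6, at chr15:25413765-25414014 (minus strand) for Basp1, chr19:47014431-47014680 (plus strand) for Ina and chr5:37241808-37242057 (plus strand) for Crmp1. Crmp1 has 2 annotated starts, and the upstream one is given. Capitals mark matches, on either strand, to the GC box GGGCGG, the TATA box TATAAA, the cyclic AMP response core TGACG and the E box CANNTG.
Basp1: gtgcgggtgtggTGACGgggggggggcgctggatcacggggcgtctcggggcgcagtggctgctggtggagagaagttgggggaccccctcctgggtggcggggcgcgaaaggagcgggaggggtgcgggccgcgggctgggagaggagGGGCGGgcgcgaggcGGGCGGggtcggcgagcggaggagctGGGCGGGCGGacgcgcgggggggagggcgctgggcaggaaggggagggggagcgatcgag
Ina: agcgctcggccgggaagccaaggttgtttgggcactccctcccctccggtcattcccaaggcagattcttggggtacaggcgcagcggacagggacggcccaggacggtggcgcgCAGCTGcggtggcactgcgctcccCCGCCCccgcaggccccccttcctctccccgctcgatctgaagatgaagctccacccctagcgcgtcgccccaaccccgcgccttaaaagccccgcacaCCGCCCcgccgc
Crmp1: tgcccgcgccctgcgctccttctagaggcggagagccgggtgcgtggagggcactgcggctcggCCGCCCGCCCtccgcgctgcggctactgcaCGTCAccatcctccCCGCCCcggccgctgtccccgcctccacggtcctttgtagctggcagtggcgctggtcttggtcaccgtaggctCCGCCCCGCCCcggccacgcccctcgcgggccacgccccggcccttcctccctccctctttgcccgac
Basp1 had 4 GC box matches in this window, a pair of which overlap, and 1 match to the response core that began 238 bases before the start. Ina had 2 GC boxes and 1 E box, and Crmp1 had 5 GC boxes, of which 2 pairs overlap, and 1 response core. The TATA letters were in none of the 3 windows. Over all 32851 windows of this length, a GC box was in 32.7%, a TATA box in 12.4%, the response core in 17.8% and an E box in 66.2%. The windows of Basp1, Ina and Crmp1 had a GC content of 78.8%, 70.8% and 75.6%, against a median of 52.4% over all windows. The window of Marcksl1, the other member with an entry, had 0 GC boxes, 1 E box and a GC content of 60.4%. The window of the downstream Crmp1 start had 2 GC boxes, 0 response cores, 1 E box and a GC content of 59.6%. Which start of Crmp1 these cells use was not tested.

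Among the libraries, the pair at 4 h was the least alike (Pearson r of log2 values 0.973, against up to 0.993 for other pairs). Over all genes, the log2 change at 4 h also went with the GC content of the transcript (Spearman 0.53 across genes, against 0.17 at 2 h, -0.30 at 6 h and -0.15 at 8 h), and the members that crossed 1.5-fold without that trend are given both ways. Between 11328 and 11444 genes had at least 1 FPKM in a library, and the number of reads behind each gene's value is unknown. The cells carried 8 listed neuronal markers out of 9 with a summed level of 423 to 524 FPKM, and 7 of 7 sympathetic neuroblast markers with a sum of 130 to 196 FPKM. The sums of the listed astrocyte, fibroblast and leukocyte markers reached at most 0.768, 1.53 and 0.443 FPKM. Tubb3, Aqp4, Col1a2, Ptprc and Tyrobp of these lists were not listed. In bulk mRNA, fewer cells that express a gene and less of its mRNA per cell cannot be told apart.

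The levels of the members, which FPKM makes comparable between genes of different length, spanned a wide range. Dpysl3 was the most abundant with a mean of 511 ± 67.7 FPKM (SD, n = 8 libraries of different conditions), higher than in 99.1% of the genes tested, followed by Crmp1 with 128 ± 3.6 FPKM and Marcksl1 with 105 ± 14.6 FPKM. Basp1 and Gap43 had 45.0 ± 8.65 and 43.9 ± 5.25 FPKM, Dpysl2 had 29.7 ± 8.2 FPKM, Ina had 23.8 ± 3.49 FPKM, and Marcks was the lowest of the 8 with 10.7 ± 2.65 FPKM. Between neighbors in this order, the libraries of Basp1 and Gap43, of Gap43 and Dpysl2, and of Dpysl2 and Ina overlapped, while the other 4 neighboring pairs did not overlap. For Crmp1 and Marcksl1 the gap was narrow, with a lowest value of 122 FPKM for Crmp1 and a highest of 121 FPKM for Marcksl1.

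**Figure D1:**
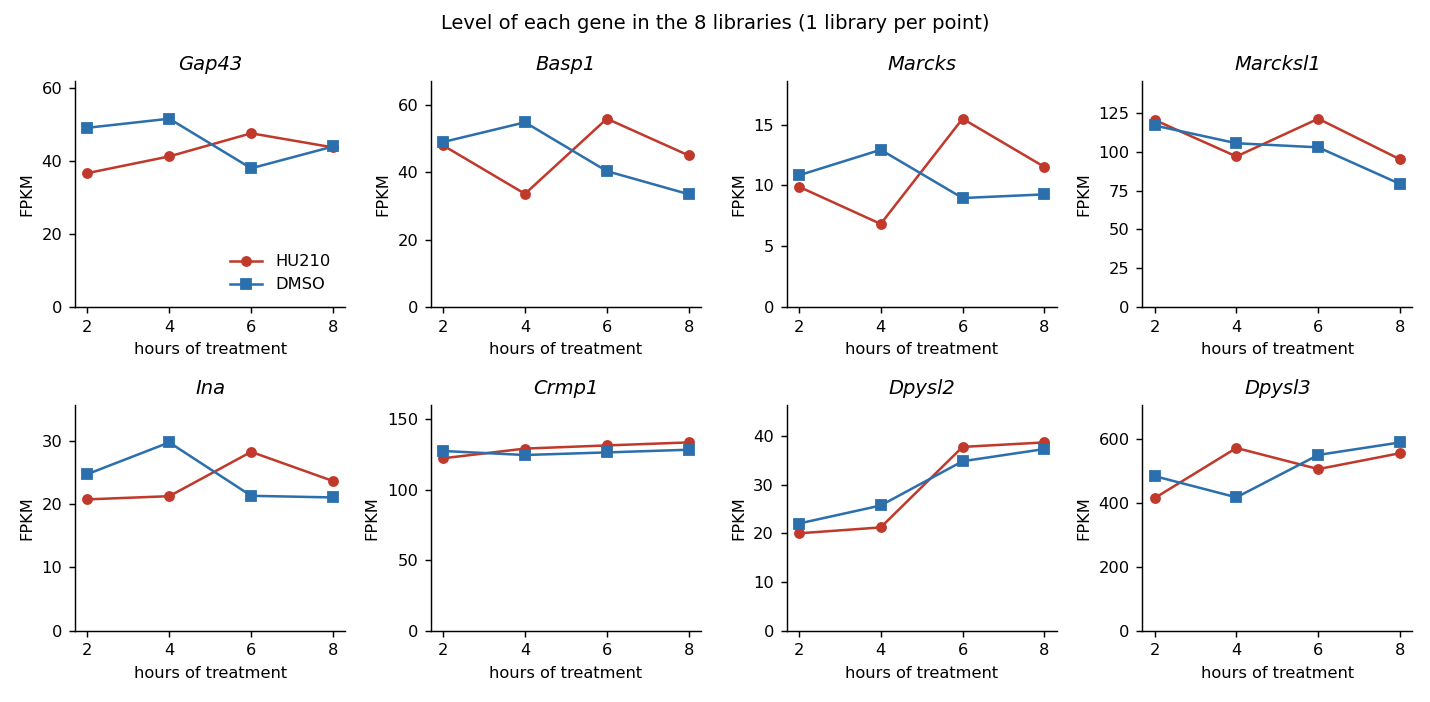
FPKM (y axis, from 0) of the 8 tested genes against hours of treatment (x axis) in HU210 (red circles) and DMSO (blue squares), 1 library per point. The lines of every gene but Crmp1 cross between 4 h and 6 h, those of Dpysl3 in the opposite direction. Crmp1 lies between 122 and 134 FPKM throughout, and Dpysl2 is higher at 6 h and 8 h in both treatments.

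The membrane-bound substrates of protein kinase C are considered by themselves, beginning with Marcks, the scaffold that sequesters phosphoinositides at the membrane (ENSMUSG00000069662, mm9 chr10:36853049-36858732, protein coding, minus strand). Its level was 9.9 FPKM with HU210 and 10.8 FPKM with DMSO at 2 h, 6.83 and 12.9 FPKM at 4 h, 15.5 and 8.96 FPKM at 6 h, and 11.5 and 9.26 FPKM at 8 h. The HU210 library at 4 h was the lowest of the 8 and the HU210 library at 6 h the highest, with a ratio of 2.27 between them, and the DMSO libraries lay between these extremes. The log2 change, taken here as log2[(FPKM with HU210 + 1)/(FPKM with DMSO + 1)], was -0.12, -0.83, 0.73 and 0.29 at the successive hours. With the GC and length trend removed, the change at 4 h was -0.54, and with the DMSO libraries of all hours averaged as the reference it was also -0.54, both short of 1.5-fold. At 6 h the same alternatives gave 0.58 and 0.53.

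Basp1 encodes a myristoylated membrane protein of axon terminals (ENSMUSG00000045763, mm9 chr15:25293040-25343519, minus strand). Its level was 48.0 FPKM with HU210 and 49.0 FPKM with DMSO at 2 h, 33.6 and 54.8 FPKM at 4 h, 55.9 and 40.4 FPKM at 6 h, and 45.0 and 33.5 FPKM at 8 h. The HU210 library was lower than DMSO at 4 h and higher at 6 h and 8 h, and the DMSO library at 8 h was the lowest of the 8. The log2 changes were -0.03, -0.69, 0.46 and 0.42. Without the GC and length trend the change at 4 h was -0.83, and against the averaged DMSO libraries it was -0.37.

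Gap43, the classical marker of growing and regenerating axons (ENSMUSG00000047261, mm9 chr16:42248555-42340764, minus strand), stood at 36.6 FPKM with HU210 and 49.1 FPKM with DMSO at 2 h, 41.2 and 51.5 FPKM at 4 h, 47.5 and 38.0 FPKM at 6 h, and 43.7 and 43.9 FPKM at 8 h. HU210 was thus lower than DMSO at 2 h and 4 h, higher at 6 h, and nearly level at 8 h, with log2 changes of -0.41, -0.32, 0.32 and -0.01. Gap43 was past 1.3-fold at 2 h in the values as deposited, but not after each library was centred on its median (-0.36), with the GC and length trend removed (-0.32) or against the averaged DMSO libraries (-0.30).

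Marcksl1, the smaller relative of Marcks (ENSMUSG00000047945, mm9 chr4:129190825-129193229, plus strand), showed less difference between the treatments. It had 121 FPKM with HU210 and 117 FPKM with DMSO at 2 h, 97.0 and 106 FPKM at 4 h, 121 and 103 FPKM at 6 h, and 95.1 and 79.3 FPKM at 8 h. The lowest library was DMSO at 8 h and the highest HU210 at 6 h, as for Basp1, and the log2 changes were 0.04, -0.12, 0.24 and 0.26. There was between 7.84 and 14.2 times as much Marcksl1 as Marcks per length of transcript, with the highest ratio in the HU210 library at 4 h and the lowest in the HU210 library at 6 h.

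Of the neurofilament members, Nefl and Nefm were close to 0. Nefl (mm9 chr14:68701920-68707152, plus strand) was listed at 4 h only, with 0.00377 FPKM with HU210 and 0.00306 FPKM with DMSO, and Nefm (mm9 chr14:68700647-68742903, minus strand) was listed at 0.00667 and 0.00762 FPKM. The annotated Nefm model spans Nefl on the opposite strand, so their reads could be mixed where the counting ignores strand. No fold is given for either gene. Alpha-internexin, which assembles with the neurofilament proteins, was the only member of its group above 1 FPKM.

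Ina (ENSMUSG00000034336, mm9 chr19:47089188-47099817, plus strand) had 20.7 FPKM with HU210 and 24.7 FPKM with DMSO at 2 h, 21.2 and 29.7 FPKM at 4 h, 28.2 and 21.3 FPKM at 6 h, and 23.6 and 21.0 FPKM at 8 h. As for Marcks and Basp1, HU210 was below DMSO at 2 h and 4 h and above it at 6 h and 8 h, with log2 changes of -0.24, -0.47, 0.39 and 0.16. The other intermediate filament genes place Ina within its class. Vim (vimentin) had a mean of 799 FPKM and Prph (peripherin, of peripheral neurons) 490 FPKM, and there was 15.6 to 24.5 times as much Prph as Ina. Nefh, neurofilament heavy, had 11.6 FPKM, Nes (nestin) 6.62 FPKM and Synm (synemin) 4.45 FPKM, while Des (desmin) and Gfap had 0.658 and 0.189 FPKM. Of these 7 genes, 5 were tested, and 0 of the 5 were past 1.3-fold at any hour, the largest log2 change being 0.31 for Nefh at 8 h.

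**Figure D2:**
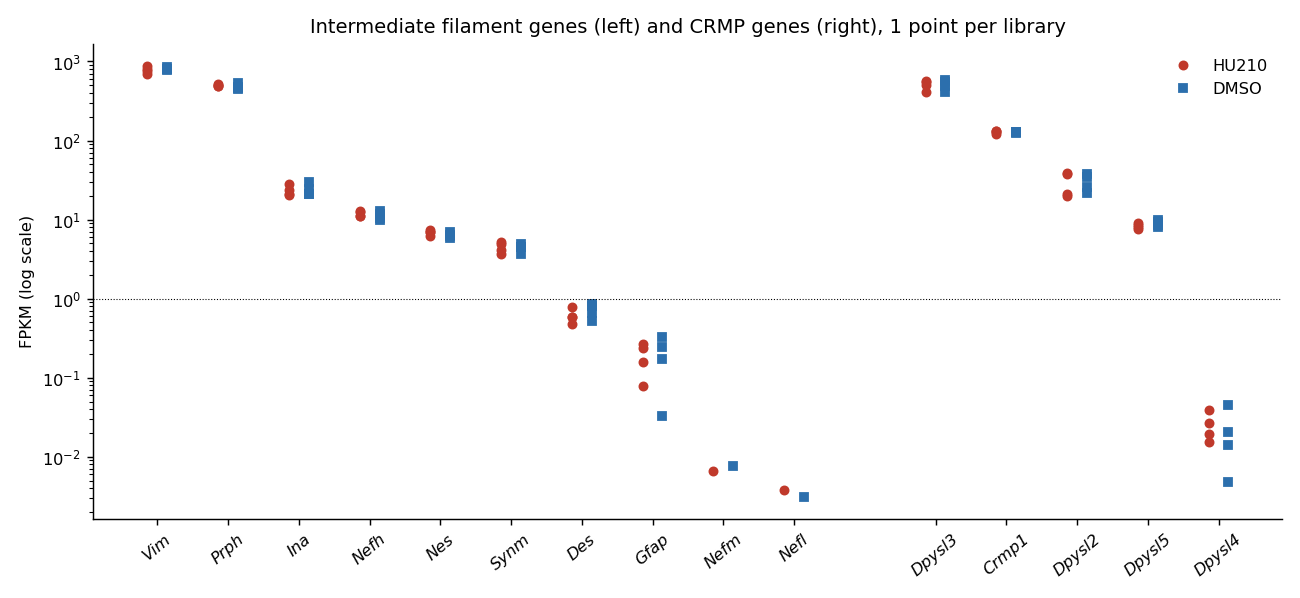
FPKM on a log axis (y) for intermediate filament genes (left) and CRMP genes (right), with 1 point for each library in which the gene is listed, HU210 in red and DMSO in blue. The dotted line is 1 FPKM, and Nefm and Nefl, each with 1 pair of points at 4 h, lie below 0.01 FPKM.

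Among the CRMP genes, Crmp1 (ENSMUSG00000029121, mm9 chr5:37633319-37683371, plus strand) hardly varied. It had 122 FPKM with HU210 and 128 FPKM with DMSO at 2 h, 129 and 125 FPKM at 4 h, 132 and 127 FPKM at 6 h, and 134 and 129 FPKM at 8 h. The highest library was 1.09 times the lowest, and the log2 changes were -0.06, 0.05, 0.06 and 0.06.

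Dpysl2 encodes CRMP2, the CRMP known for binding tubulin dimers and promoting axon extension (ENSMUSG00000022048, mm9 chr14:67421701-67487525, minus strand). Its level was 20.0 FPKM with HU210 and 22.0 FPKM with DMSO at 2 h, 21.2 and 25.7 FPKM at 4 h, 37.8 and 34.8 FPKM at 6 h, and 38.7 and 37.3 FPKM at 8 h. All 4 libraries of 6 h and 8 h were above all 4 libraries of 2 h and 4 h, in both treatments, with means of 37.1 ± 1.65 and 22.2 ± 2.46 FPKM (SD, n = 4 libraries each). The log2 changes with HU210 were -0.13, -0.27, 0.11 and 0.05.

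Dpysl3, which encodes CRMP4 (ENSMUSG00000024501), had 415 FPKM with HU210 and 483 FPKM with DMSO at 2 h, 571 and 417 FPKM at 4 h, 505 and 550 FPKM at 6 h, and 555 and 589 FPKM at 8 h. HU210 was above DMSO at 4 h only, so that its log2 changes of -0.22, 0.45, -0.12 and -0.08 ran against those of Marcks and Basp1 at 4 h and 6 h. Without the GC and length trend its change at 4 h was 0.60, past 1.5-fold, but against the averaged DMSO libraries it was 0.18, short of 1.3-fold. Against that reference the change at 8 h was 0.14. Summed over the CRMP family, Dpysl3 made up 72.2% to 78.3% of the FPKM in a library, Crmp1 16.8% to 21.6%, Dpysl2 2.91% to 5.53% and Dpysl5 1.06% to 1.69%. Dpysl4 was close to 0, with at most 0.0448 FPKM. The share of Dpysl2 was 4.84% or more in the 4 libraries of 6 h and 8 h and 4.46% or less in those of 2 h and 4 h.

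At single hours, few members passed 1.5-fold. With 1 library on each side there is no test, and each count is set beside the share of all 11306 genes past the same fold. At 2 h, 0 of the 8 were past 1.5-fold, against 0.504% of all genes higher and 1.45% lower. At 4 h, Marcks and Basp1 were lower and 0 members were higher, against 8.69% of all genes lower and 2.77% higher. At 6 h, Marcks was higher and 0 were lower, against 1.73% higher and 0.637% lower, and at 8 h 0 members passed, against 1.17% higher and 0.557% lower.

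At 1.3-fold, Gap43 was lower at 2 h and 0 members were higher, where 3.91% of all genes were lower and 1.49% higher. At 4 h, Marcks, Basp1 and Ina were lower and Dpysl3 was higher, where 19.9% of all genes were lower and 8.97% higher. At 6 h, Marcks, Basp1 and Ina were higher and 0 were lower, where 6.39% were higher and 1.72% lower, and at 8 h Basp1 was higher and 0 were lower, where 4.38% were higher and 1.44% lower. After centring, the 1.3-fold calls of Ina at 4 h (-0.37) and 6 h (0.31) and those of Basp1 at 6 h (0.377) and 8 h (0.35) were lost. The averaged DMSO reference left Basp1 at 0.35 at 6 h and 0.04 at 8 h. It left Ina at -0.17 at 4 h and 0.23 at 6 h, and Dpysl3 at 0.18 at 4 h, all short of 1.3-fold. The median log2 change of the 8 members was -0.12, -0.29, 0.28 and 0.11 at the successive hours, and that of all genes -0.05, -0.08, 0.06 and 0.04. Members and genes at large were thus on the same side of 0 at each hour, with 7 of 8 members lower at 2 h, 6 lower at 4 h, 7 higher at 6 h and 6 higher at 8 h, against 64.0% and 59.0% of all genes lower and 65.6% and 62.5% higher. Basp1, Marcks, Ina and Dpysl2, 4 of the 8, were lower with HU210 at both 2 h and 4 h and higher at both 6 h and 8 h, which 25.1% of all genes were.

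**Figure D3:**
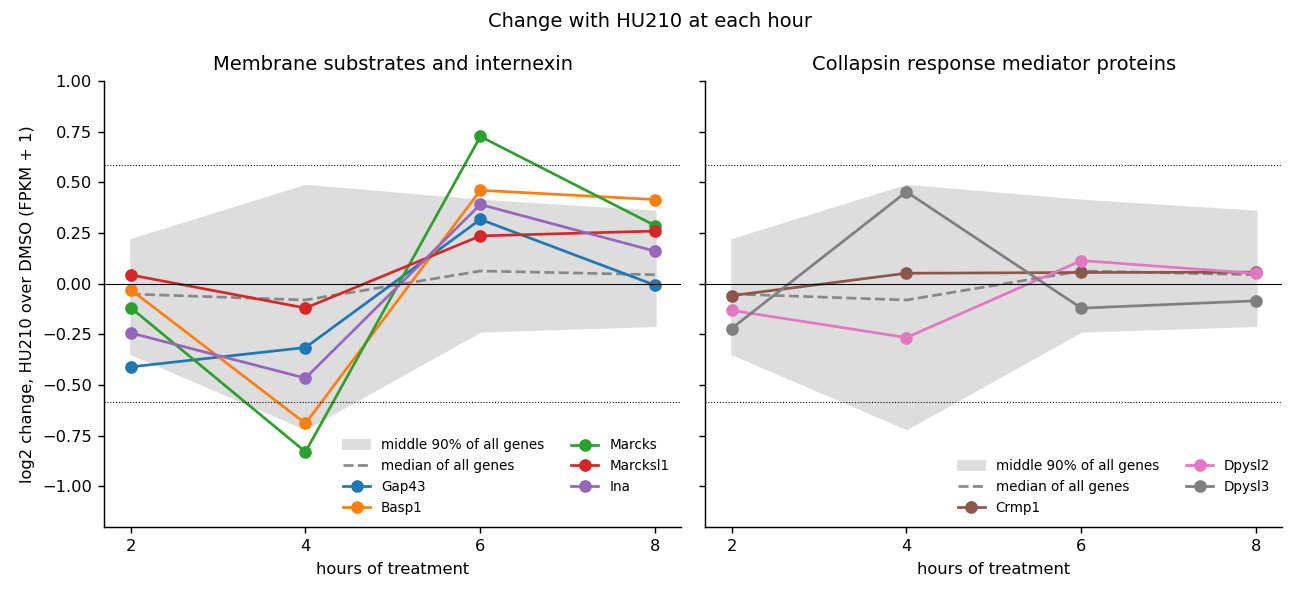
Log2 change with HU210 over DMSO (y axis, on FPKM + 1) against hours of treatment (x axis), with the membrane substrates and Ina on the left and the CRMP genes on the right. The gray band holds the middle 90% of the 11306 genes, the dashed line is their median and dotted lines mark 1.5-fold; Marcks lies outside the band at 4 h (-0.83) and 6 h (0.73), Gap43 at 2 h (-0.41), Basp1 at 6 h (0.46) and 8 h (0.42), and Dpysl3 is the highest of the 8 at 4 h (0.45).

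Over the 4 hours together, 0 of the 8 members differed past the threshold between HU210 and DMSO. In a limma fit across all genes with hour as a block, the largest differences were 0.10 for Marcksl1 (95% interval -0.12 to 0.33) and -0.10 for Gap43 (-0.43 to 0.22), each with a limma adjusted p of 1.0. The intervals were widest for Marcks (-0.57 to 0.60) and Basp1 (-0.45 to 0.52), and narrowest for Crmp1 (-0.15 to 0.20), so that a change of Crmp1 by more than 1.15-fold in either direction lay outside its interval. Of all genes, 0% (0 of 11306) passed an adjusted p of 0.05 and 1.31% (148) had an unadjusted p under 0.05, among them 0 of the 8 members. The HU210 libraries of 0 members stood clear of the DMSO libraries, which 0.743% of all genes did. An exact permutation test that swaps HU210 and DMSO within hours cannot go below a two-sided p of 0.125 here, and the smallest among the members was 0.375, for Marcksl1. Without both libraries of 4 h, the estimate was 0.28 for Basp1 and 0.30 for Marcks, against 0.04 and 0.02 with all hours.

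The late libraries (6 h and 8 h, both treatments) were compared with the early ones (2 h and 4 h). Dpysl2 was higher in the late libraries by 0.72 on the log2 scale (SE 0.0761, 95% interval 0.54 to 0.90), or 1.65-fold, with an unadjusted limma p of 1.43e-05, which ranked 1 of 11306 genes. Its limma adjusted p was 0.162, short of the threshold, and 0.0341 with the GC and length trend removed. Over the 12 alternatives, the difference ranged from 0.67 to 0.77 and the adjusted p from 0.0341 to 0.591. On Dpysl2 alone, the gene ranked first, an exact permutation test of 4 against 4 libraries gave a two-sided p of 0.0286. This is the smallest it can give, and any gene whose late and early libraries do not overlap gets it. The HU210 and DMSO libraries of 1 hour share that hour. The limma fit and this test treat the 4 libraries of a side as independent, so their p-values can overstate the evidence. Hour and any handling particular to an hour cannot be told apart.

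Dpysl2 was the only member of the 8 whose late libraries were all above the early ones, as 3.24% of all genes had, and 0 members had all late libraries below, as 2.2% had. Dpysl3 was higher late by 0.23 (SE 0.124, adjusted p 0.628 by limma) and Marcksl1 had a difference of -0.15 (SE 0.128, adjusted p 0.748 by limma), and the other 5 differences lay between -0.09 and 0.15. Of all genes, 0% (0 of 11306) passed the adjusted threshold and 8.82% (997) had an unadjusted p under 0.05, among them Dpysl2 alone of the members.

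The drug effect late was then compared with the drug effect early, by the interaction of treatment with hour. It was 0.98 for Marcks (SE 0.266, 95% interval 0.36 to 1.60), from a mean log2 change of -0.47 at 2 h and 4 h to 0.51 at 6 h and 8 h. Basp1 followed with 0.80 (SE 0.267, interval 0.18 to 1.42), Ina with 0.63 (SE 0.177, interval 0.22 to 1.04) and Gap43 with 0.52 (SE 0.164, interval 0.14 to 0.90). The limma adjusted p was 0.189, 0.232, 0.198 and 0.219, so none of the 4 passed the threshold. Their unadjusted limma p was 0.00637, 0.0177, 0.00752 and 0.0138. The fit had no term for single hours, so it did not pair the HU210 and DMSO libraries of an hour. Its SE therefore does not measure how the paired change varied between hours, and these intervals and p-values can overstate the evidence. For Marcks the paired changes were -0.12 and -0.83 at 2 h and 4 h, and 0.73 and 0.29 at 6 h and 8 h. In all, 4 of the 8 members had an unadjusted p under 0.05, against 15.8% of all genes (1786), of which 0% (0 of 11306) passed after adjustment. After each library was centred on its median, 3 of the 8 had an unadjusted limma p under 0.05, against 1440 of 11306 genes. With the GC and length trend removed, 4 of the 8 had one, against 1214 of 10585 genes.

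The other 4 members had interactions of 0.29 (Marcksl1), 0.28 (Dpysl2), 0.06 (Crmp1) and -0.22 (Dpysl3), with limma adjusted p from 0.399 to 0.853. The median interaction over all genes was 0.116, and -0.03 once each library was centred on its median, a shift of 0.147. After centring, Marcks had 0.83, Basp1 0.65, Ina 0.48 and Gap43 0.37. With the GC and length trend removed they had 0.69, 0.83, 0.63 and 0.37, so the direction held under both scalings for these 4 genes. Without the HU210 library at 4 h the interaction of Basp1 was 0.55 and that of Marcks 0.74.

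**Figure D4:**
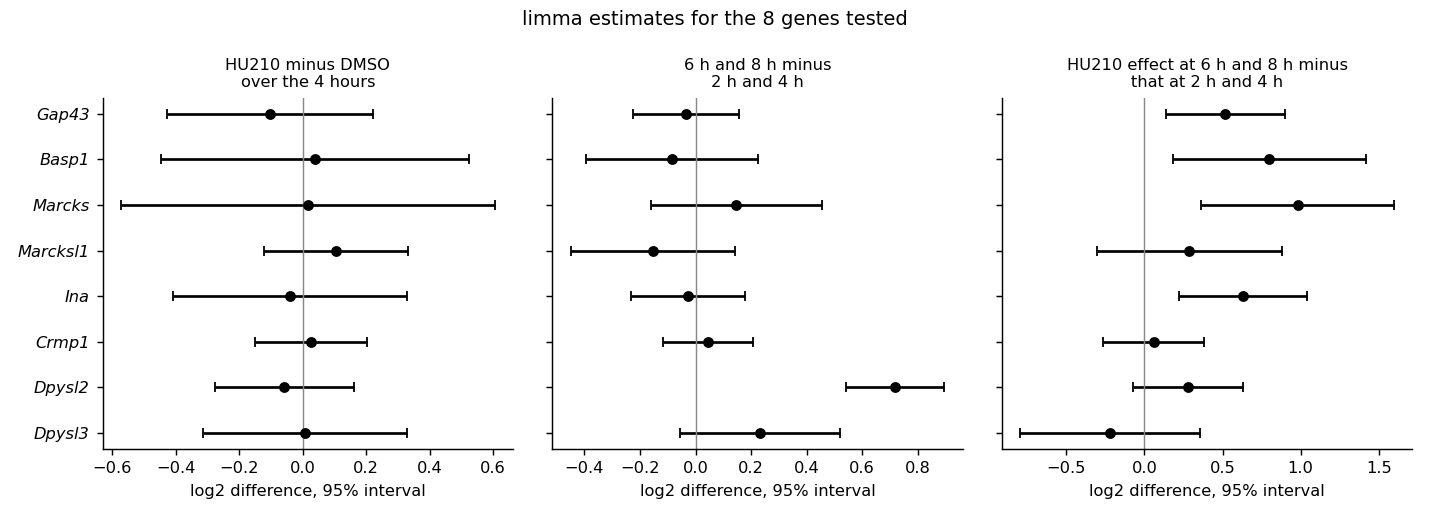
limma estimates (points) with 95% intervals (bars, not adjusted for the number of genes) for the 8 genes, on the log2 scale of FPKM + 1 (x axes). Left, HU210 minus DMSO over the 4 hours, with all intervals spanning 0; middle, late minus early libraries, with Dpysl2 at 0.72; right, the drug effect late minus early, with Marcks at 0.98.

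Across the 8 libraries, some pairs of members varied together, and no grouping was tested. These correlations are descriptions over 8 libraries that share hours and treatments, on log2 values. Basp1 and Marcks had a Pearson r of 0.87, Gap43 and Ina 0.85, Marcks and Ina 0.83, and Basp1 and Marcksl1 0.78. Other pairs of these genes were looser, such as Gap43 and Basp1 with 0.48, Marcks and Marcksl1 with 0.46, Ina and Marcksl1 with 0.40, and Gap43 and Marcksl1 with 0.06. Dpysl3 ran opposite to Basp1 (r = -0.75) and Marcksl1 (r = -0.69). Dpysl2 was not closely followed by any other member, with r from -0.42 with Marcksl1 to 0.64 with Crmp1.

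Among all 11306 genes, those whose log2 values were most like a member's over the 8 libraries were the following. They are the highest of 11306 values over 8 libraries, which can be large for any gene, and whether these exceed that was not tested. The median r of a member with all genes lay between -0.09 (Dpysl3) and 0.24 (Ina), and was 0.03 for Dpysl2. For Dpysl2 they were Map1b (r = 0.986), Dip2b (r = 0.986) and Pde4dip (r = 0.984). Map1b, a microtubule-associated protein of growing axons, had 102 to 125 FPKM in the early libraries and 143 to 161 FPKM in the late ones. For Basp1 they were Tmed2, Cd2ap and Vapa (r = 0.985 to 0.994), and for Marcks Cul4b, Ldlrad3 and Fbxl7 (r = 0.975 to 0.978). For Gap43 they were Fbxo21, Fig4 and B4gat1 (r = 0.961 to 0.98), for Ina Hey1, Anp32a and Scn3b (r = 0.978 to 0.984), and for Marcksl1 Tma7, H2az1 and Cacybp (r = 0.974 to 0.988). For Dpysl3 they were Wnt3, Anapc2 and Arhgap10 (r = 0.956 to 0.965), and for Crmp1, with its small variation, Gm15546, Ap2a2 and Crem (r = 0.925 to 0.938).

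Related genes were taken as lists. Of 25 other growth cone genes, 23 were tested and Gpm6a and Tubb3 were not listed. Their median log2 change was -0.10, -0.11, 0.11 and -0.01 at the successive hours. Enah, an actin elongation factor at filopodial tips, had the largest change, with 12.5 FPKM with HU210 and 29.8 FPKM with DMSO at 4 h (log2 change -1.19) and 23.2 and 13.5 FPKM at 6 h (0.74). Pfn2 (profilin 2, a supplier of actin monomers) was the other gene past 1.5-fold lower at 4 h (-0.63), and had 0.49 at 6 h. The transcripts of Enah and Pfn2 had a GC content of 52.8% and 45.7%, and the part of the GC trend at 4 h in their changes was not tested. Stmn4, a tubulin-binding stathmin, ran differently, with a log2 change of -0.57 at 2 h and -0.66 at 8 h, where HU210 had 24.5 FPKM and DMSO 39.3 FPKM. L1cam, an axonal adhesion molecule, had 0.40 at 4 h. By limma, 0 of the 23 passed the adjusted threshold in any of the 3 comparisons. An unadjusted limma p under 0.05 was found for 0, 2 and 3 of the 23 for the drug, the late hours and their interaction. The shares of all genes were 1.31%, 8.82% and 15.8%.

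Of the other CRMP genes, their kinases and partners, 13 of 16 were tested. At 4 h, 12 of the 13 were lower with HU210 (median -0.20, against -0.08 for all genes), as were 59.0% of all genes. At 6 h 11 of 13 were higher (0.19 against 0.06), as were 65.6% of all genes. Rock1 and Rock2, kinases that phosphorylate CRMP2, had log2 changes of -0.58 and -0.58 at 4 h, Fyn, a Src family kinase, 0.50 at 8 h, and Dyrk2, a priming kinase of CRMPs, 0.43 at 6 h. The transcripts of Rock1 and Rock2 had a GC content of 39.0% and 41.2%, and the part of the GC trend at 4 h in their changes was not tested. Dyrk1a was listed at 0 in all 8 libraries, and whether the cells lack its mRNA was not tested. Sema3a and Dpysl4 were close to 0. The unadjusted limma p was under 0.05 for 0, 2 and 3 of the 13 in the 3 comparisons, against 1.31%, 8.82% and 15.8% of all genes, and 0 passed after adjustment.

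Protein kinase C and calmodulin, which act on the membrane-bound members, were represented by 10 tested genes of 14, with a median log2 change of -0.02, -0.03, 0.01 and 0.12. Prkci (atypical protein kinase C iota) was lower at 4 h (-0.64). Of the genes for calmodulin, Calm2 had -0.48 at 4 h and Calm3 had 0.35 at 6 h. The transcripts of Prkci and Calm2 had a GC content of 44.7% and 42.7%, and the part of the GC trend at 4 h in their changes was not tested. Prkch was at most 0.0158 FPKM, Prkcq was not listed, and Pcp4 was listed at 3 of the 4 hours. By limma, 0, 2 and 1 of the 10 had an unadjusted p under 0.05, against 1.31%, 8.82% and 15.8% of all genes, and 0 passed after adjustment.

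RNA-binding proteins that act on the 3′ ends of neuronal mRNAs such as that of Gap43 were lower at 4 h in 6 of 6 tested genes of 8, with a median of -0.57, where 59.0% of all genes were lower, with a median of -0.08. Elavl1, Elavl2, Igf2bp3 and Elavl4 had log2 changes of -0.70, -0.66, -0.60 and -0.55 at 4 h, and Igf2bp1 was not listed. The transcripts of these 4 had a GC content of 38.5% to 45.8%, at an hour when the change went with GC content, and the part of that trend in these values was not tested. At 6 h all 6 were higher, with a median of 0.22, as were 65.6% of all genes. The enzymes that attach myristate and palmitate, by which the membrane-bound members are anchored, had medians of -0.18, -0.33, 0.28 and 0.18 in their 5 tested genes of 6, with the signs that all genes showed (-0.05, -0.08, 0.06 and 0.04). Zdhhc2, a palmitoyltransferase, had -0.78 at 4 h and 0.70 at 6 h, Nmt2 had -0.50 and Zdhhc3 -0.31 at 4 h, Nmt1 had -0.41 at 2 h, and Zdhhc7 was not listed. The transcripts of Zdhhc2, Nmt2 and Zdhhc3 had a GC content of 42.2%, 42.6% and 50.4%, and the part of the GC trend in their changes at 4 h was not tested either. In the 3 limma comparisons, 0, 2 and 2 of the 6 RNA-binding proteins and 0, 0 and 3 of the 5 acylation genes had an unadjusted p under 0.05. The shares of all genes were 1.31%, 8.82% and 15.8%, and 0 of these genes passed after adjustment.

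**Figure D5:**
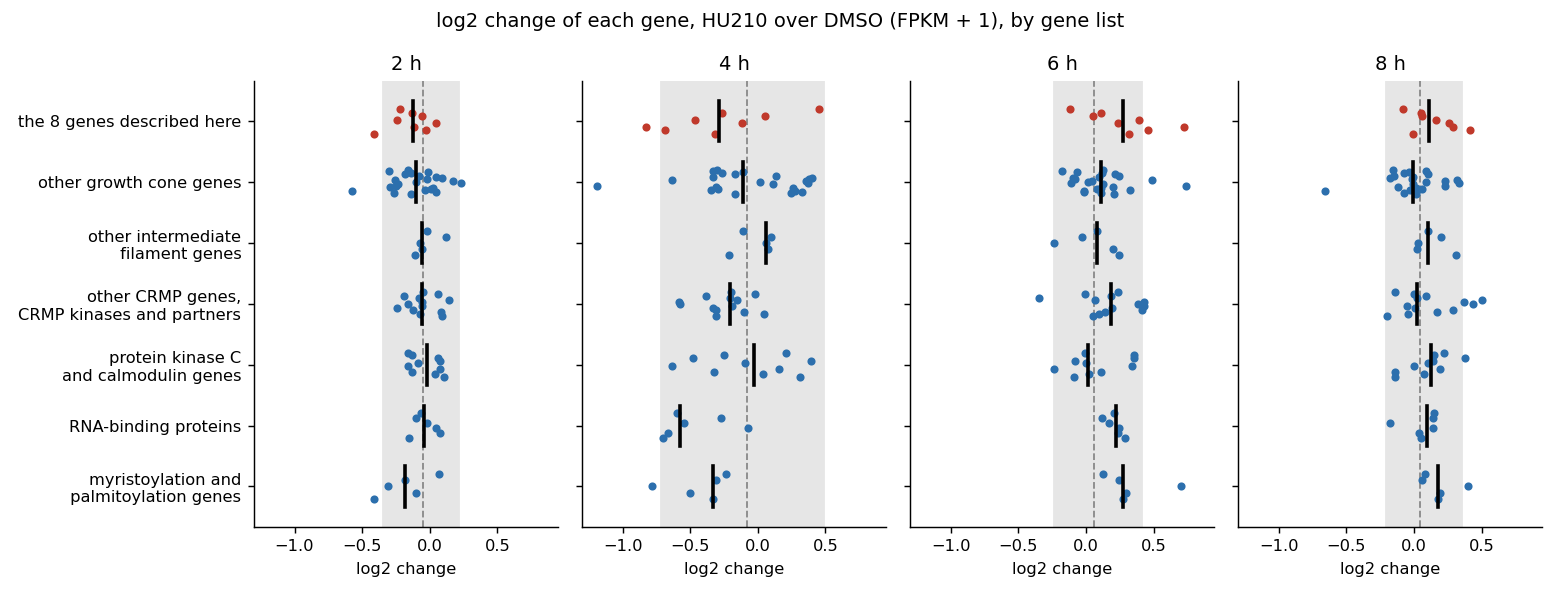
Log2 change with HU210 over DMSO at each hour (x axes) for every tested gene of each list (points), with the list's median (black bar), the median of all genes (dashed line) and their middle 90% (gray). The medians of the RNA-binding proteins (-0.57) and of the acylation genes (-0.33) at 4 h lie furthest to the left, and Enah is the leftmost point at 4 h (-1.19).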

How the data were processed

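The data are 8 mRNA libraries of N2A cells, 1 for each treatment and hour. The authors mapped the reads to mm9 with TopHat 2.0.8, Bowtie 2.1.0 and samtools 0.1.7 and computed FPKM with Cufflinks, upper-quartile normalization and corrections for multiply mapped reads and fragment bias. The deposited FPKM carry an added 1, which was subtracted here. Columns of the authors' own log2 fold changes, p-values, adjusted p-values and calls, and a table of called genes, were not used. The paper states the total reads of a sample, but the reads counted for each gene are unknown, so no counting interval is given.

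Changes were taken on log2(FPKM + 1), which understates those of low genes, over the genes listed at all 4 hours with a mean FPKM of at least 1. Fits used limma 3.58.1 in R 4.3.3 (eBayes with trend) over all 11306 genes, with Benjamini-Hochberg adjustment over all of them. The first fit took hour as a block (3 residual degrees of freedom), the second treatment, late against early hours and their interaction (4 residual degrees of freedom). With 1 library per condition, hours stand in for replicates, and p-values measure the spread between such libraries. The second fit had no term for single hours, so the 2 libraries of an hour counted as independent in late against early and in the interaction. The limma fits were tested on simulated data with independent noise, equal in size for all genes. That noise held no effect shared by the libraries of an hour, so the simulation could not check this dependence. Alternatives were a pseudocount of 0.1, no filter, centring on the median, removal of the loess trend (span 0.3, degree 1) on GC content and length for the 10585 genes with both, the mean DMSO reference, 1.3-fold, no hour block, exact swaps, a linear hour term, scaling of levels by the library median, and leaving out libraries or hours. GC content, length and positions come from GENCODE vM1 on mm9, and promoters from RefSeq on GRCm38.p6. From each list, the text may name the 4 genes with the largest change at any hour, those past a limma threshold and those at 0 or not listed, and for each member the 3 genes most like it. The values of 1 gene that this rule allows are not reported here. The members and lists were chosen with earlier results of these data known. The other steps ran in Python 3.11.15 (scipy 1.17.1, numpy 2.4.6, matplotlib 3.10.9, pandas 2.3.3).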

Additional observations from a re-analysis of the deposited data

How the results depend on the processing

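Of the 160 log2 changes of members under 5 alternatives, 141 moved by less than the SD of the gene over the 4 DMSO libraries, 19 moved further and 0 changes past 1.5-fold turned direction. Dropping the filter cannot alter a gene's own change, so its 32 values were the same in advance. The pseudocount of 0.1 hardly acts at these levels and also kept 32 of 32. Of 32 changes each, 28 stayed within that SD after centring, 28 with the GC and length trend removed and 21 against the mean DMSO reference. Centring shifts every gene alike, by less than that SD for all members but Crmp1 (SD 0.0181), so its count follows from the shift. The mean DMSO reference moves a change by the deviation of 1 DMSO library from the mean of the 4. The SD is taken over the same 4 libraries, so many changes stay within it by construction. Neither count measures how firm the changes are. The number of members past 1.5-fold at 4 h was 2 lower and 0 higher as reported, 1 and 1 with the GC and length trend removed, and 0 lower with the DMSO libraries of all hours averaged as the reference. At 6 h it was 1 higher as reported and 0 under both of these. At 1.3-fold it was 1 lower at 2 h, 3 lower and 1 higher at 4 h, 3 higher at 6 h and 1 higher at 8 h. After centring these 1.3-fold counts were 0 at 2 h, 2 lower and 1 higher at 4 h, 1 at 6 h and 0 at 8 h. Members lower at 2 h and 4 h and higher at 6 h and 8 h numbered 4 as reported (25.1% of all genes), 2 after centring (Marcks and Ina, 12.9% of all genes), 2 against the mean DMSO reference (Marcks and Dpysl2, 15.6%), 5 with the trend removed (12.7%) and 5 without the pair at 4 h (30.4%), counts that were added after the data were seen.

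Of the limma counts over all genes, 0 as reported, late against early gave 4 higher and 3 lower with no filter and 1 higher (Dpysl2, the 1 member past the threshold) with the trend removed, and the interaction gave 2 higher and 5 lower with no filter. Leaving out libraries gave 0 to 1 genes lower and 0 higher for late against early, and 0 to 97 higher and 0 to 4 lower for the interaction, the highest without the DMSO library at 2 h, with 0 members among them. The cause was not tested. The drug fit paired HU210 and DMSO by hour, which was its block. Without the block, 0 genes passed (91 at an unadjusted p under 0.05, limma). With 1 library per condition and the reads counted for each gene unknown, no error can be given for changes at single hours.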
